A study of Mus musculus with 4 samples.

Results

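The CIDE proteins and the perilipins sit on the lipid droplet, the organelle in which a fat cell stores triglyceride. The family examined here holds 8 genes, the 3 CIDE genes Cidea, Cideb and Cidec and the 5 perilipin genes Plin1 to Plin5. Members were the probes whose gene name in the scanner files equalled one of these names, and 10 such probes were found on all 4 arrays, of 55672 probes in use. The 8 genes stood among 22065 genes that could be named. Perilipins coat the droplet and control which lipases reach it. In the resting adipocyte Plin1 holds the lipase co-activator Abhd5 at the droplet surface and releases it when protein kinase A phosphorylates Plin1. CIDE proteins gather where droplets touch and let lipid pass from the smaller droplet into the larger. White adipocytes keep a large unilocular droplet and brown adipocytes keep many small ones, and Cidea is in wide use as a brown adipocyte marker.

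RNA had been taken from interscapular brown adipose tissue (iBAT) and epididymal white adipose tissue (eWAT) of wild-type (WT) and ASK1-deficient (ASK1KO) male mice aged 10 weeks under normal conditions, to learn what the kinase ASK1 does in fat. ASK1, the product of Map3k5, is a MAP kinase kinase kinase that acts upstream of p38 and JNK. The mice lacked ASK1 in the whole body, not in adipocytes alone, and the methods state that they and the WT mice came from separate breeding. They name C57BL/6 J as the strain unless another is given. Each of the 4 conditions was 1 pool of RNA from 3 mice on 1 one-colour Agilent array, so nothing is known of the variation among mice, and genotypes were compared within a tissue by size alone. Whether the iBAT and the eWAT pool of a genotype came from the same mice is not given in the sources used here.

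The value of a probe was the scanner software's background-corrected signal, and for comparisons its log2 was taken minus the 75th percentile of the array. That percentile was 356 and 371 on the iBAT arrays and 673 and 634 on the eWAT arrays (WT first), so an equal signal in both tissues stands for a higher scaled level in iBAT. Between 28983 and 33386 probes per array were well above background, and 0 spots were saturated. The software put the error of a bright signal at 10%, which gives 0.20 on the log2 ratio of 1 probe, and repeated spots of a probe gave a median SD of that ratio between 0.060 and 0.087. Both errors cover the array and not the mice. The tissue labels fitted their markers, since 9 of 9 brown adipocyte markers in the fit were higher in iBAT and 3 of 3 white adipocyte markers were higher in eWAT (limma, adjusted p under 0.05). Of the 2 Map3k5 probes, one gave 448 in WT and 117 in ASK1KO iBAT and 701 and 194 in eWAT, and the other gave 1081 and 1082 in iBAT and 1264 and 836 in eWAT. Where these probes lie relative to the deleted part was not determined. Markers of other cell types differed between arrays as well. The summed scaled signal of 8 skeletal muscle markers was 736 and 744 on the WT and ASK1KO iBAT arrays against 8.98 and 4.76 on the eWAT arrays. For 10 hepatocyte markers the sums were 2.55 and 5.43 in iBAT, 56.6 in WT eWAT and 2.87 in ASK1KO eWAT. For 8 macrophage markers they were 40.7 and 50.8 in iBAT and 150 and 141 in eWAT, and 0 of 5 epididymis markers was well above background on any array.

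The members split by tissue. Cidea, Cideb, Plin5, Plin2 and Plin3 were higher in iBAT, Plin4 and Cidec were higher in eWAT, and Plin1 did not pass the test. Tissue was tested with limma in a fit of tissue and genotype over the 4 arrays, with Benjamini-Hochberg adjustment over the 14057 genes measured on all of them. By this test 5 of the 8 members were higher in iBAT, beside 30.8% of all genes, and 2 of the 8 were higher in eWAT, beside 24.6% of all genes. The median difference, iBAT minus eWAT, was 1.29 on the log2 scale over the members and 0.07 over all genes. The fit had 2 pools per tissue, 1 of each genotype. Its 1 residual degree of freedom is the change of the tissue difference between genotypes, not a spread between replicates. The limma fit combined it with a variance prior from all genes, worth 5.24 degrees of freedom. The p-values therefore do not measure the variation among mice, and their size depended on the processing. For Cidea the limma adjusted p was 5.8e-05 as scaled here and 2.97e-204 under median centring. In whole tissue, fewer cells of a type and less RNA per cell cannot be told apart.

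**Figure D1:**
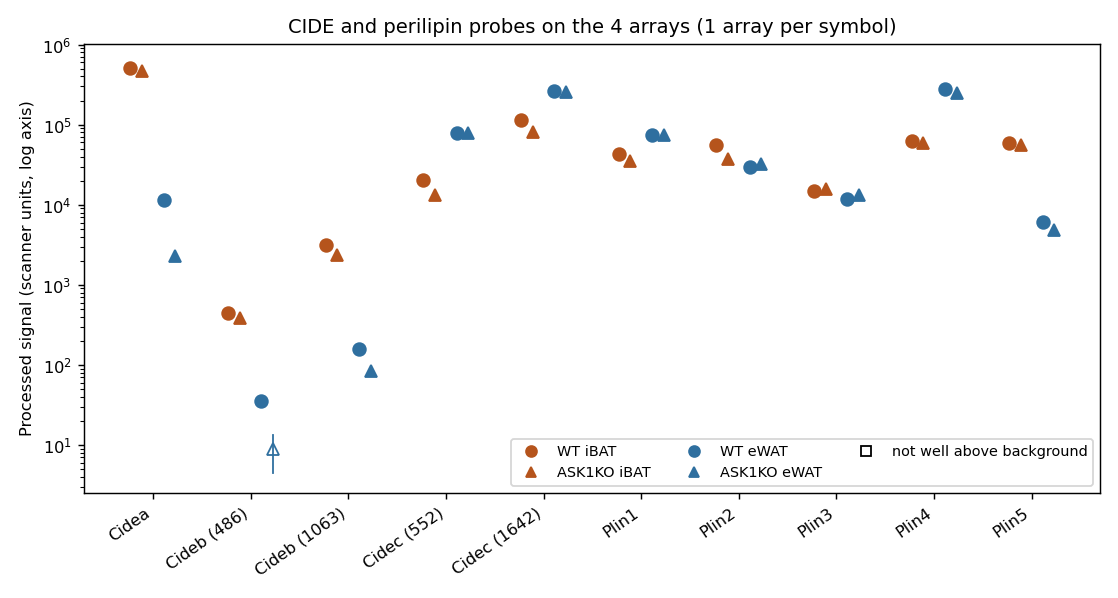
Signal of the 10 CIDE and perilipin probes (scanner units, log axis), with 1 symbol per array, circles for WT and triangles for ASK1KO, and vertical lines for the error of the scanner software. Levels may be compared along a probe and not between probes, and numbers in brackets are transcript positions. The Cidea symbols lie between 2316 and 514381, with both iBAT arrays above both eWAT arrays, and the open symbol marks the Cideb probe that was not well above background in ASK1KO eWAT.

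Among the CIDE genes, Cidea and Cideb stood on the brown side and Cidec on the white side. Cideb is known best from hepatocytes, where it helps to load lipid onto secreted lipoproteins, and Cidec, also called Fsp27, drives the growth of the unilocular droplet in white fat. Both genes were read by a pair of probes of 60 bases, which show whether a difference holds along the transcript. The first 30 bases of each are given 5′ to 3′ with the position of the probe in the transcript, since the probes of a pair differed in brightness and the results below are given probe by probe.
Cideb probe at 486: ctaggacgggagaagccaaaacacagcaag
Cideb probe at 1063: ggtttttactgacgcctacccctaagatcc
Cidec probe at 552: tctatgacacatactcgctttcctatgacc
Cidec probe at 1642: tttttccacgaatgagtgaatggtattaga
In the mouse assembly mm9 the Cideb probes lie on the minus strand at chr14:56373658-56373717 and chr14:56372942-56373001, and the Cidec probes on the minus strand at chr6:113378116-113378175 and chr6:113374630-113374689. Exons and untranslated regions were not assigned, because no genome or gene models of that build were used.

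The Cideb probe at 1063 gave a signal of 3121 in WT iBAT, 2338 in ASK1KO iBAT, 159 in WT eWAT and 84.0 in ASK1KO eWAT. All iBAT values lay above all eWAT values. The scaled level was 37.1-fold higher in iBAT than in eWAT of WT mice and 47.5-fold higher in ASK1KO mice, and the fitted log2 difference was 5.39 ± 0.16 (SE, limma adjusted p = 8.68e-06). Its adjusted p ranked 46 among all genes. At the Cideb probe at 486 the signal was 449 and 381 in iBAT, WT first, and 35.5 in WT eWAT, and it was not well above background in ASK1KO eWAT. The dimmer probe therefore stood in the same order as the brighter one, 23.9-fold higher in iBAT than in eWAT of WT mice, and the tissue fit for Cideb rests on the probe at 1063 alone. The hepatocyte markers, whose cells are the best known source of Cideb, summed to 2.55 in WT iBAT, 5.43 in ASK1KO iBAT, 56.6 in WT eWAT and 2.87 in ASK1KO eWAT, and their part in the Cideb level was not tested.

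Cidec ran the other way at both probes. The probe at 552 gave 20661 in WT iBAT, 13273 in ASK1KO iBAT, 77742 in WT eWAT and 79517 in ASK1KO eWAT. The probe at 1642 gave 115488, 81648, 264402 and 256098 in the same order. Both probes were brightest on the eWAT arrays, but the size differed between them, with a scaled eWAT level 1.99-fold over iBAT at the probe at 552 and 1.21-fold at the probe at 1642 in WT mice. Over both probes the log2 difference, iBAT minus eWAT, was -0.63 between the WT pools and -1.34 between the ASK1KO pools, and the fit gave -0.99 ± 0.20 (SE, limma adjusted p = 0.00725). With tissue fitted alone the limma adjusted p was 0.0164, and without the ASK1KO eWAT array it was 0.0526 at a similar difference of -0.95. With the brighter probe alone the log2 difference was -0.58 (limma adjusted p = 0.0383). It was -1.59 after quantile normalization and -1.83 without scaling (limma adjusted p = 0.00066 and 0.00143). Relative to the median of all genes it was -1.06, and after quantile normalization -1.58.

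Cidea, which enlarges the small droplets of brown adipocytes, had the widest range of the family. Its probe gave a signal of 514381 in WT iBAT, 473797 in ASK1KO iBAT, 11532 in WT eWAT and 2316 in ASK1KO eWAT. The scaled level was thus 84.4-fold higher in iBAT than in eWAT of WT mice and 349-fold higher in ASK1KO mice. The fitted log2 difference was 7.42 ± 0.43 (SE, limma adjusted p = 5.8e-05), and its SE was the largest of the 8 members as the genotypes differed by 2.05 in this difference. Between the WT pools 99.8% of genes had a smaller difference than Cidea.

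Plin5 stood nearest to Cidea and Cideb among the perilipins. Plin5 ties droplets to mitochondria in tissues that burn fat, such as heart, skeletal muscle, liver and brown fat. The Plin5 probe gave 58248 in WT iBAT, 55685 in ASK1KO iBAT, 6078 in WT eWAT and 4878 in ASK1KO eWAT. Its scaled level was 18.1-fold higher in iBAT of WT mice and 19.5-fold higher in iBAT of ASK1KO mice, and the fitted log2 difference was 4.23 ± 0.15 (SE, limma adjusted p = 1.33e-05). Skeletal muscle expresses Plin5 as well, and the muscle markers were higher in iBAT in 6 of 6 genes in the fit, with a median log2 difference of 7.75, beside 6.35 for the brown adipocyte markers. The part of muscle RNA in the tissue difference of Plin5 was not tested.

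Plin4 and Plin5 are direct neighbours and pointed in opposite directions between the tissues. Plin4 is a long perilipin that coats small nascent droplets in white adipocytes. Its probe gave 63007 in WT iBAT, 58878 in ASK1KO iBAT, 278042 in WT eWAT and 247503 in ASK1KO eWAT, so both eWAT arrays lay above both iBAT arrays. The scaled level was 2.33-fold higher in eWAT of WT mice and 2.46-fold higher in eWAT of ASK1KO mice, with a fitted log2 difference, iBAT minus eWAT, of -1.26 ± 0.15 (SE, limma adjusted p = 0.000696). That difference was -1.95 after quantile normalization and -2.11 without scaling. Relative to the median of all genes it was -1.33, and after quantile normalization -1.94. The Plin4 probe (chr17:56240055-56240114, mm9) and the Plin5 probe (chr17:56251025-56251084, mm9) lie on the minus strand with 10.9 kb between them, and 0 genes lie between the genes in the RefSeq table. Plin3 lies 167 kb further along, beyond 9 other genes.

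To set the neighbours side by side, and the CIDE genes of opposite tissue direction beside them, the 250 bases before the start of Plin4, Plin5, Cidec and Cideb are given 5′ to 3′ along the gene, from the RefSeq promoter table (GRCm38.p6, minus strand for each). Capitals mark the letters AGGTCA, the core of many nuclear receptor sites, CCAAT, and TATAAA, each on either strand, so that CCAAT on the other strand reads ATTGG.
Plin4, chr17:56109783-56110032: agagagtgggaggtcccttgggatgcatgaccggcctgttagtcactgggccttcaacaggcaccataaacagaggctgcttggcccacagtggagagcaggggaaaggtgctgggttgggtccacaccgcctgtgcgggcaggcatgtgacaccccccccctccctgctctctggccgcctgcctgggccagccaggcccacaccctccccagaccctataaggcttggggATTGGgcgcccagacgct
Plin5, chr17:56117549-56117798: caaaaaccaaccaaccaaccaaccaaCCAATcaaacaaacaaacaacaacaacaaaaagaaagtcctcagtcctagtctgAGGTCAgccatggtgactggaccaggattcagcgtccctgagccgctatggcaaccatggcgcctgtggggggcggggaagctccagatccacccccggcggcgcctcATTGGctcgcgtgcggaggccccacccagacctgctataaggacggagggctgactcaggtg
Cidec, chr6:113435761-113436010: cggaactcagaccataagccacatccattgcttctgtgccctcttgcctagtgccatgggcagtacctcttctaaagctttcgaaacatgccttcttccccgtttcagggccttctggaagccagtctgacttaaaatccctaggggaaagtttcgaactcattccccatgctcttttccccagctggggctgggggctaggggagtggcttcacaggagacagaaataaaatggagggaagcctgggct
Cideb, chr14:55758425-55758674: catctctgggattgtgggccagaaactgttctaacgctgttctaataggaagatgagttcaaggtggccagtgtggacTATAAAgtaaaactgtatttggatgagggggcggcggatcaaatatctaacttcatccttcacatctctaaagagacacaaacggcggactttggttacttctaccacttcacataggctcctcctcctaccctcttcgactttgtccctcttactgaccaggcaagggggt
For Plin5 and Cidec the table holds 2 starts each, and the first listed is shown. AGGTCA stood at -170 of this Plin5 start, counted from the start of the gene, and CCAAT at -224 and, on the other strand, at -62. CCAAT stood at -18 of Plin4 on the other strand, TATAAA at -172 of Cideb, and the Cidec stretch held none of these letters.

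Of the members, 7 had a promoter in the table, with 9 windows of 300 bases that run to 50 bases after the start, out of 32851 windows over all genes. AGGTCA was found in 3 of the 9 member windows, both Plin5 windows and the Plin2 window at -218 on the other strand, and in 16.3% of all windows. CCAAT was found in 4 member windows (Plin2, Plin3, Plin4 and Plin5) and in 37.4% of all windows. CACGTG, the E-box read by several basic helix-loop-helix factors, was found only in the Plin2 window among the members, at -4, and in 7.15% of all windows. TATAAA was found only in the Cideb window among the members and in 13.6% of all windows. TNAAGGTCA, the extended site of the estrogen-related receptors, which contains AGGTCA, was in 0 member windows and 1.28% of all windows, and TGACGTCA, the cAMP response element, in 0 member windows and 1.79%. These are matches of letters on both strands and not binding sites.

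Plin2 and Plin3, the perilipins found in most cell types, were moderately higher in iBAT. Plin2 binds droplets wherever lipid accumulates, and Plin3 moves between cytosol and droplet. The Plin2 probe (chr4:86302847-86302906, mm9, minus strand) gave 56511 in WT iBAT, 37683 in ASK1KO iBAT, 29541 in WT eWAT and 32056 in ASK1KO eWAT. On the scaled log2 scale these were 7.31, 6.67, 5.46 and 5.66, so the order ran from WT iBAT through ASK1KO iBAT down to the eWAT pools, which differed by 0.21 ± 0.20. The scaled level was 3.62-fold higher in iBAT of WT mice and 2.01-fold higher in iBAT of ASK1KO mice, with a fitted log2 difference of 1.43 ± 0.22 (SE, limma adjusted p = 0.00241). The Plin3 probe (chr17:56418429-56418488, mm9, minus strand) gave 14827 and 15791 in iBAT and 11764 and 13172 in eWAT, WT first. Its scaled level was 2.39-fold and 2.05-fold higher in iBAT of WT and ASK1KO mice, and the fitted log2 difference was 1.14 ± 0.15 (SE, limma adjusted p = 0.00121). Without scaling between arrays, which moved the median tissue difference of all genes from 0.07 to -0.77, Plin2 stood at 0.58 and Plin3 at 0.30, and neither passed the test. Relative to the median of all genes, a value that 1 constant per array cannot change, they stood at 1.36 and 1.07, and after quantile normalization at 0.97 and 0.90.

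Plin1, the gatekeeper of lipolysis in adipocytes, was the member whose tissue difference was not resolved. Its probe (chr7:86866112-86866171, mm9, minus strand) gave 42541 in WT iBAT, 35521 in ASK1KO iBAT, 74499 in WT eWAT and 73763 in ASK1KO eWAT. The signals were higher in eWAT, but the scaled log2 levels were 6.90, 6.58, 6.79 and 6.86 and overlapped between the tissues. The fitted log2 difference, iBAT minus eWAT, was -0.09 ± 0.17 (SE, limma adjusted p = 0.684). It was -0.66 after quantile normalization (limma adjusted p = 0.00812), where Plin1 passed the test. Without scaling it was -0.93 (limma adjusted p = 0.00372). Relative to the median of all genes, which 1 constant per array cannot change, it was -0.16, and after quantile normalization -0.65. Adipocyte markers common to both fats had a median log2 difference of 0.20, with 3 of 6 higher in iBAT and 2 of 6 higher in eWAT.

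**Figure D2:**
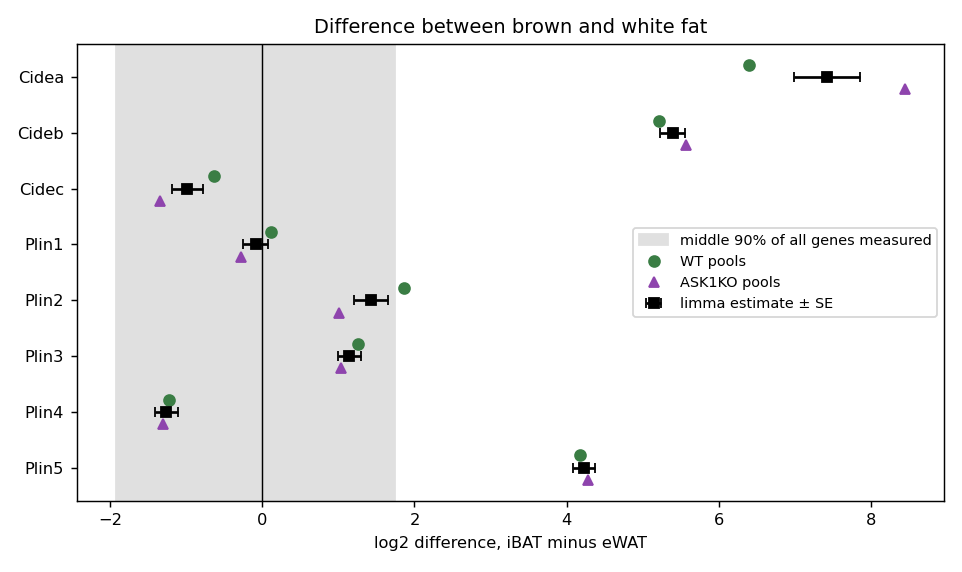
Log2 difference, iBAT minus eWAT, of the scaled level of each gene, between the WT pools (circles), between the ASK1KO pools (triangles) and from the limma fit (squares, bars ± SE), with the middle 90% of the fitted differences of 14057 genes shaded from -1.92 to 1.74. Cidea, Cideb and Plin5 lie beyond the shaded range, the WT circle of Plin2 at 1.86 lies past its edge but within the middle 90% of the WT differences (up to 1.89), Cidec and Plin4 lie below 0, and the Plin1 symbols stand on both sides of 0.

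Between genotypes in iBAT, 0 of the 8 members was 2-fold apart, beside 0.835% of 14376 genes 2-fold higher and 1.02% 2-fold lower in the ASK1KO pool. The members furthest from 0 were Plin2 and Cidec, both lower in the ASK1KO pool. Plin2 had a log2 ratio, ASK1KO minus WT, of -0.65 ± 0.20 (software error), a ratio of 0.639. Cidec had -0.63 ± 0.14, a ratio of 0.646, and its probes gave -0.70 at 552 and -0.56 at 1642. Of all genes measured in iBAT, 9.18% lay as far from the median of all genes as Plin2 and 9.79% as far as Cidec. The Plin2 ratio was 7.43 times and the Cidec ratio 7.26 times the median SD between repeated spots.

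The other members lay closer to 0 in iBAT. Cideb had a log2 ratio of -0.39 ± 0.14, with -0.30 and -0.48 at its probes, and Plin1 had -0.32 ± 0.20. Cidea had -0.18 ± 0.20, Plin4 -0.16 ± 0.20, Plin5 -0.13 ± 0.20 and Plin3 0.03 ± 0.20, each smaller than the software error. In all, 7 of the 8 members were below 0, as were 59.5% of all genes, though Plin5 was at 0.01 after quantile normalization. Plin3 was below 0 too under median centring or in the deposited series table. The Cidea probe was the brightest measured probe on both iBAT arrays. Quantile normalization gives the top rank the same value on every array, so its Cidea ratio of 0 was fixed in advance. The median was -0.25 over the members and -0.07 over all genes, and the latter moved between -0.15 and 0.04 with the scaling. Relative to that median, Plin2 stood at -0.58, Cidec at -0.56, Cideb at -0.32, Plin1 at -0.26 and Plin3 at 0.10. Beside these values, 8 of 8 macrophage markers were above 0 in iBAT, with a median of 0.75, and Trem2 and Gpnmb among them were 2-fold higher. Hepatocyte markers had a median of 0.81 over 4 measured, with Mup20 and Serpina1a 2-fold higher and 1 of 4 below 0. White adipocyte markers had a median of 0.44 over 3 measured, with 1 of 3 below 0. Brown adipocyte markers had a median of -0.26, with 9 of 11 below 0 and Elovl3 and Dio2 2-fold lower, and the adipocyte markers of both fats a median of 0.03. These marker genes are named after their values were seen, and the part of a shift in cell types in the member ratios was not tested.

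**Figure D3:**
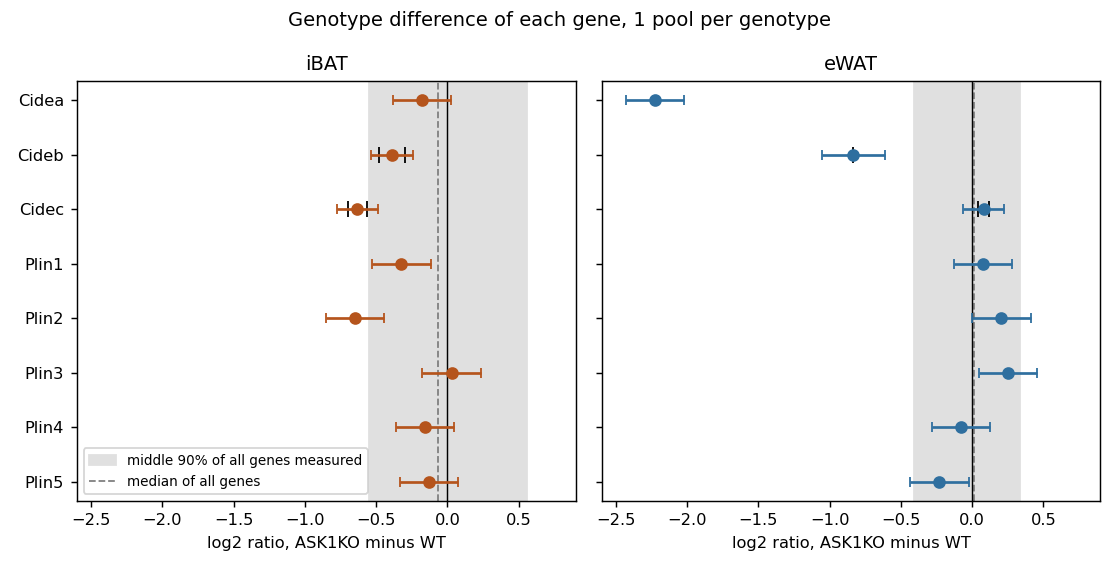
Log2 ratio, ASK1KO minus WT, of each member in iBAT (left) and eWAT (right), bars showing the error of the scanner software, short ticks the single probes, dashed lines the median of all genes and shading the middle 90% of genes. With 1 pool per genotype there is no spread between mice. Plin2 and Cidec lie at -0.65 and -0.63 in iBAT and above 0 in eWAT as scaled here (Cidec at -0.01 without scaling), and Cidea lies at -2.23 in eWAT.

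In eWAT 1 of the 8 members, Cidea, was 2-fold lower in the ASK1KO pool, beside 0.865% of 15376 genes, and 0 members were 2-fold higher, beside 0.286% of genes. Cidea (probe at chr18:67527351-67527410, mm9, plus strand) had a log2 ratio of -2.23 ± 0.20, 4.69-fold lower, and 0.182% of genes had a lower ratio. Cideb came next. At its probe at 1063 the log2 ratio was -0.83 ± 0.22, a ratio of 0.561, and 1.33% of genes had a lower ratio. Its probe at 486 was well above background in WT eWAT and not in ASK1KO eWAT. Against the lowest level well above background, it was at least 1.61-fold lower in the ASK1KO pool. The WT eWAT signal of 35.5 was itself low, with 9.3% of measured probes dimmer and a software error of 15.1%, and the bound carries no error. Over the alternatives the Cideb ratio ranged from -1.37 without the filter on dim probes to -0.57 with normexp background correction. Cidec had a log2 ratio of 0.08 ± 0.14.

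The perilipins differed little in eWAT. Plin5 had a log2 ratio of -0.23 ± 0.20 and Plin4 had -0.08 ± 0.20. Plin1 had 0.07 ± 0.20, Plin2 0.21 ± 0.20 and Plin3 0.25 ± 0.20. Of the 8 members, 4 were below 0 and 4 above, beside 45.8% of all genes below 0, with Cidec and Plin1 changing sign among the scalings, and the median was -0.0034 beside 0.02 over all genes.

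Several marker groups were lower beside Cidea and Cideb in ASK1KO eWAT. Of the brown adipocyte markers measured there, 8 of 9 were below 0 with a median log2 ratio of -0.84, and Ucp1 at -4.63, Kng2 at -1.58 and Dio2 at -1.02 were 2-fold lower. Slc27a2 and Elovl3 are not in this count, as neither was well above background in ASK1KO eWAT. Their signals were 270 and 36.6 in WT eWAT and 10.9 and 4.99 in ASK1KO eWAT. Of the skeletal muscle markers, 5 of 6 were below 0, with a median of -0.58 and Acta1 2-fold lower. All 6 hepatocyte markers measured were below 0, with a median of -4.15, 5 of them 2-fold lower. Genes below background in the ASK1KO pool are missing from these counts too. Of 13 hepatocyte probes, 13 were well above background in WT eWAT and 9 in ASK1KO eWAT, and of 10 muscle probes 9 and 6. The adipocyte markers of both fats had a median of 0.07, with 1 of 6 below 0. The part of brown adipocytes, muscle or liver RNA in the lower Cidea and Cideb of the ASK1KO pool was not tested.

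Side by side, the genotype ratios of the tissues lay furthest apart for Cidea, Plin2 and Cidec. The tissue difference, iBAT minus eWAT, was larger by 2.05 in the ASK1KO pools for Cidea. The change of that difference, ASK1KO minus WT, was -0.85 for Plin2, -0.71 for Cidec and -0.40 for Plin1. It was smaller for Plin5 at 0.10, Plin4 at -0.08 and Plin3 at -0.22. For Cideb it was 0.36 at the probe at 1063 alone, with ratios of -0.48 in iBAT and -0.83 in eWAT. The Cideb iBAT ratio of -0.39 given above is over 2 probes, and it lies further from the eWAT ratio. With 1 pool per condition these changes could not be tested. In the fit over 4 arrays, which takes the genotype effect as equal in both tissues, 0 of 14057 genes had a limma adjusted p under 0.05 for genotype and 770 had an unadjusted p under 0.05. Among the members these were Cidea, with an adjusted p of 0.854, and Cideb, with 0.649 (limma).

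To place the members among all genes, the 3 genes with the nearest profile over the 4 arrays were taken for each, by the Euclidean distance between log2 profiles centred on their own mean. Only 4 values enter each profile, so this is a description. Nearest to Cidea were Ttn, the giant sarcomere protein, at 0.60, Cpt1b, the muscle and brown fat carnitine palmitoyltransferase, at 0.90, and Cox7a1, a subunit of cytochrome c oxidase, at 1.01. Ttn had a log2 ratio of 0.15 between the iBAT pools and -1.84 between the eWAT pools, near the Cidea pattern of -0.18 and -2.23. Nearest to Cideb were the imprinted RNA H19 at 0.35, Neb, a sarcomere protein, at 0.50 and the estrogen-related receptor Esrrg at 0.51. Cpt1b and Cox7a1 are also in the list of brown adipocyte markers. Nearest to Plin5 were Acss1, a mitochondrial acetyl-CoA synthetase, at 0.20, the enolase Eno3 at 0.23 and the reductase Gmpr at 0.24.

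Profiles with smaller differences had closer neighbours. Cidec was matched by A830082N09Rik at 0.02, Ubxn8 at 0.04 and Scd2, a stearoyl-CoA desaturase, at 0.06, and Scd2 had -0.56 in iBAT and 0.11 in eWAT as its log2 ratios. Plin2 was matched by Mpc1, a subunit of the mitochondrial pyruvate carrier, at 0.05, Tmem210 at 0.06 and Tstd3 at 0.08. Mpc1 had -0.64 in iBAT and 0.24 in eWAT. Plin4 was matched by Prrx1, Fancl and Casp9, Plin3 by St8sia1, Gfy and Prss36, and Plin1 by Alad, Naa50 and Gga2, at distances from 0.0067 to 0.054.

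The partners of the family on and around the droplet were described from lists of genes. Of the lipolysis list, 9 of 10 genes were below 0 in iBAT with a median log2 ratio of -0.33, and 4 of 10 were below 0 in eWAT with a median of 0.05. Abhd5, the co-activator that Plin1 holds, had -0.47 in iBAT and 0.22 in eWAT over 3 probes. Pnpla2, the lipase that Abhd5 activates, had -0.13 and 0.04, and Lipe, the hormone-sensitive lipase, had -0.30 and 0.10. G0s2, the inhibitor of Pnpla2, had -0.54 and -0.67 and was thus lower in the ASK1KO pool of both tissues. None of these 4 genes was 2-fold apart. Between the tissues Pnpla2 was higher in iBAT by 1.01 ± 0.15 and G0s2 by 1.16 ± 0.15 (SE, limma adjusted p = 0.00185 and 0.000998), and Lipe did not pass the test (-0.41, adjusted p = 0.0787).

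Genes of triglyceride synthesis were below 0 in iBAT in 8 of 8, with a median log2 ratio of -0.39, and in 3 of 8 in eWAT, with a median of 0.07. Agpat2, the acyltransferase that makes phosphatidic acid, was the only gene of the droplet lists 2-fold apart between genotypes, with -1.14 in iBAT and -0.02 in eWAT. Droplet formation genes were below 0 in 5 of 5 in iBAT (median -0.30) and in 1 of 4 in eWAT (median 0.02). Other droplet surface proteins were below 0 in 8 of 10 in iBAT (median -0.25) and in 3 of 11 in eWAT (median 0.05). The median of all genes stood at -0.07 in iBAT and 0.02 in eWAT. In iBAT the members and each of these 4 lists thus had a median below that of all genes, by values from the same 2 arrays. The transcriptional regulators described next stood at -0.17. List medians were taken only as scaled here. Quantile normalization moved the iBAT ratio of every member upward, that of Plin2 from -0.65 to -0.49, and the median of all genes from -0.07 to -0.025.

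Of 12 transcriptional regulators of droplet genes, a list that holds brown fat regulators, 8 were higher in iBAT and 2 in eWAT (limma, adjusted p under 0.05), beside 30.8% and 24.6% of all genes. Their median log2 difference was 2.20. Ppargc1a, a co-activator that raises Cidea in brown adipocytes, was higher in iBAT by 3.69 ± 0.15, and Nrip1, the co-repressor that lowers Cidea, was higher in eWAT (-2.33 ± 0.15, SE, limma adjusted p = 1.88e-05 and 7.2e-05). Between genotypes 0 of the 12 was 2-fold apart in either tissue. Pparg had a log2 ratio of -0.28 in iBAT and -0.09 in eWAT. The Ppargc1a probes disagreed in iBAT, with -0.75 at the brighter and 0.08 at the dimmer, and gave -0.22 and -0.16 in eWAT. Nrip1 had 0.30 in iBAT and 0.37 in eWAT.

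**Figure D4:**
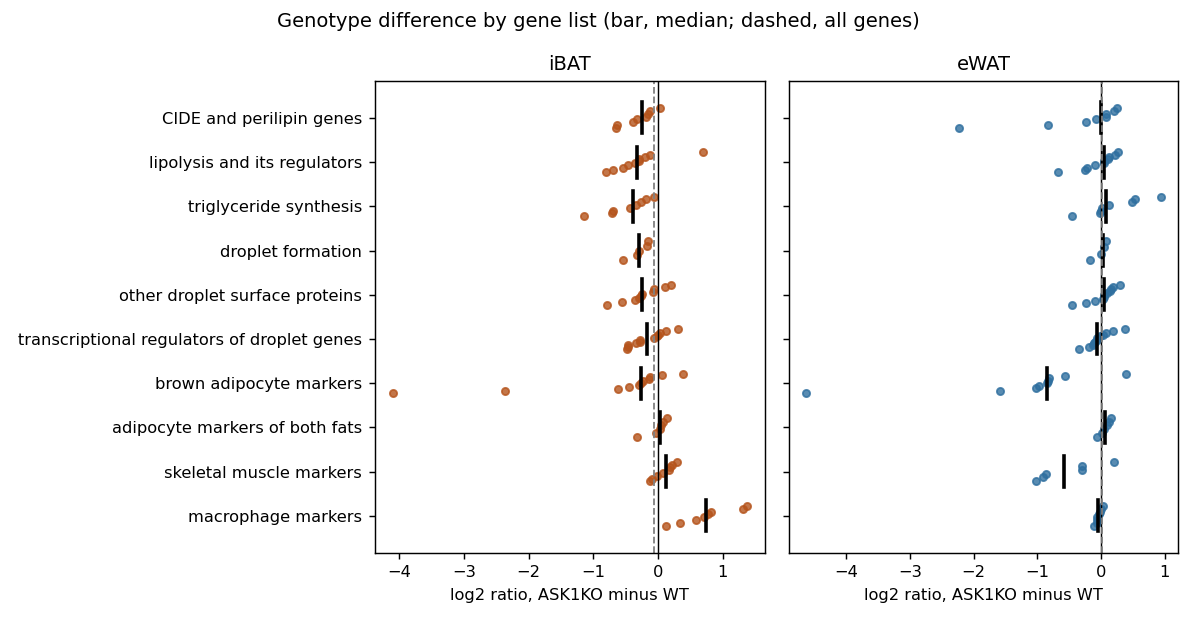
Log2 ratio, ASK1KO minus WT, of every measured gene of the CIDE and perilipin family, of 5 lists of droplet genes and of 4 lists of cell markers, in iBAT (left) and eWAT (right), with 1 point per gene, a bar at the median of the list and a dashed line at the median of all genes. In iBAT the medians of the family, lipolysis and triglyceride synthesis lie at -0.25, -0.33 and -0.39 and that of the macrophage markers at 0.75, while in eWAT the brown adipocyte and muscle markers lie at -0.84 and -0.58.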

How the data were processed

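The authors hybridized Cy3-labelled RNA and deposited the Agilent Feature Extraction 10.7.3.1 output of each array. Its processed signal, a linear intensity, had background and spatial trend removed by the software, per the file headers, and no scaling between arrays. They also deposited a series table of the same signal divided by 1 constant per array, used as an alternative, and its scale was found from the files. Control and outlier spots were left out, spots of a probe were averaged, and log2 values were scaled to the 75th percentile of each array. A gene is the mean over its probes well above background on every array compared. Of 34840 gene names, 22146 matched RefSeq symbols or unique synonyms. With 1 array per condition, genotypes were compared within a tissue at a 2-fold threshold. Tissue was fitted with genotype over 4 arrays by limma with Benjamini-Hochberg adjustment (adjusted p under 0.05). A dim probe has only a bound, against the lowest level well above background. The 4 arrays lay on 1 slide, and their number limits the precision. The genes named are the members, their 3 nearest profiles, list genes 2-fold apart, the direct partners and regulators described, Ucp1 and Map3k5. Slc27a2 is named as a brown adipocyte marker lost to background in ASK1KO eWAT. The members and the gene lists were chosen with earlier results of these data known. The tissue fit and the 2-fold rule were run on simulated data with noise set from the spread of repeated spots. That noise holds no variation among mice or pools, so these runs say nothing of it. Alternatives were normexp background correction (offset 50), no scaling, quantile normalization, a 75th percentile taken over probes detected on all arrays only, median centring, no filter on dim probes, the brightest probe, a 1.5-fold threshold and leaving out each array. Probe positions are those of the files (mm9), and promoters those of GRCm38.p6. The fits ran in R 4.3.3 with limma 3.58.1, and the rest in Python 3.11.15 with pandas 2.3.3, numpy 2.4.6 and matplotlib 3.10.9.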

Additional observations from a re-analysis of the deposited data

Results flagged for a closer look

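Plin2 was lower in the ASK1KO pool in iBAT, with a log2 ratio of -0.65, and higher in eWAT, with 0.21. Each ratio was over 2 times the median SD between repeated spots of its comparison, and the ratios differed by -0.85. The eWAT ratio was about the size of its software error (0.20) and below the 95th percentile of the spot SD (0.234), and 28.4% of all genes lay as far from the median. The difference between the tissues was not tested, since each condition had 1 pool.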

How the results depend on the processing

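No paired analysis was possible because each condition had 1 array and the labels carry no replicate numbers. In iBAT 0 members were 2-fold apart, and 2 (Cidec and Plin2) at a 1.5-fold threshold. In eWAT 1 member was 2-fold apart, and 2 (Cideb too) at 1.5-fold or without the filter on dim probes, where Cideb stood at -1.37, but it stood at -0.57 with normexp. The 7 members called between tissues were 6 to 7 when 1 array was left out and tissue fitted alone, 7 without the WT eWAT array, 8 after quantile normalization, 6 without scaling and 6 with a 2-fold change required. The tissue difference of Plin1 was 0.0754 without the ASK1KO iBAT array (limma adjusted p = 0.562). Under the other alternatives the members kept the direction of their tissue difference. Without scaling Cidea stood at 6.58, Cideb at 4.55 and Plin5 at 3.39, and after quantile normalization Cidea at 6.83, and with normexp Cideb at 4.73.

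Over the alternatives the Cidea ratio ranged from -2.34 to -2.14 in eWAT. In iBAT it ranged from -0.27 to -0.08, leaving out quantile normalization, where its top rank on both arrays fixes it at 0. The Plin2 iBAT ratio ranged from -0.73 to -0.49 and that of Cidec from -0.72 to -0.45. Counts of all genes 2-fold higher and lower were 120 and 146 in iBAT and 44 and 133 in eWAT. They were 38 and 68, and 10 and 50, with normexp, 583 and 544, and 431 and 604, without the filter, and 650 and 612, and 212 and 409, at 1.5-fold. In iBAT they were 170 and 105 with the percentile over probes detected on all arrays, 147 and 125 without scaling, 88 and 190 in the deposited series table and 90 and 186 under median centring. Of all tissue calls 55.6% were higher in iBAT, 11.8% without scaling (1283 against 9581 genes) and 67.8% without the filter (7165 against 3409). With tissue fitted alone there were 4340 and 3508 calls higher in iBAT and eWAT. Leaving out WT eWAT gave 2650 and 2263, ASK1KO eWAT 2807 and 2355, WT iBAT 4296 and 3776, and ASK1KO iBAT 4976 and 3689. The cause was not tested. Among the members only the dimmer Cideb probe failed to be well above background, in ASK1KO eWAT. The brighter Cideb probe was dim in eWAT too, with a signal of 159 in WT and 84.0 in ASK1KO. Normexp background correction moved the Cideb eWAT ratio from -0.83 to -0.57 and the Cideb tissue difference from 5.39 to 4.73.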
